A study of Rattus norvegicus with 8 samples.

Results

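The UDP-glucuronosyltransferases and the enzymes that make their sugar donor were followed in rat liver after furan. Members were the non-control probes whose gene name on the array begins with Ugt1a or Ugt2, together with those for Ugdh and Ugp2. The rule found 17 of 30367 probes, under 13 gene names: 3 Ugt1a probes, 12 Ugt2 probes, 1 for Ugdh and 1 for Ugp2. The study put liver RNA of 8 male Fisher 344 rats, aged 18 weeks, on Agilent rat arrays read in 1 colour, with 1 rat to an array. The 4 furan rats were gavaged with furan at 8 mg per kg body weight, 5 days per week, over 90 days, and the 4 control rats belong to the same experiment; both groups were killed 24 hours after the last dosing. What the controls received as vehicle is not given in the sources used here. Furan is an oxygen-containing ring compound that damages rodent liver and bile ducts.

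UDP-glucuronosyltransferases sit in the membrane of the endoplasmic reticulum and join glucuronic acid to bilirubin, steroids, bile acids, drugs and plant compounds, which makes them soluble enough to leave in bile or urine. The donor, UDP-glucuronate, is made in the cytosol: Ugp2 forms UDP-glucose from glucose 1-phosphate, and Ugdh oxidises it. The Ugt1a genes are one locus in which each gene has its own first exon and all share the remaining exons, whereas each Ugt2b gene is a separate gene with its own exons. Liver is a main site of both families, and receptors for foreign compounds and the factor NRF2 are known to switch on many of their genes.

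The probe sequences and the transcripts listed for them describe what each value was designed to read. Each probe is 60 bases long and is printed as the array annotation gives it, 5′ to 3′, whole or as its first 30 bases where it starts further 3′ in its transcript. The first set holds the probes that carried a call, with the partner probe of Ugt2b37; the number after a name is the probe's first base in its transcript. The Ugdh, Ugt2b7 and Ugt2b probes printed here each list 1 named transcript. The Ugt2b37 probes read separate stretches that lie 3530 bases apart on the chromosome (rn4).
Ugdh (1523): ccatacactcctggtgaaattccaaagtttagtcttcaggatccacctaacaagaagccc
Ugt2b7 (1654, first 30 bases): tgatgggcatgactactccctttattgctg
Ugt2b (1550): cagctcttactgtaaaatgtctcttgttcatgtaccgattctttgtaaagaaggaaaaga
Ugt2b37 (1281): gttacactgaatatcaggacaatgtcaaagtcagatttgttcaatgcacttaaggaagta
Ugt2b37 (2019, first 30 bases): atagatgcaactttacagcagacaacttga

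The Ugt2 genes resemble each other, so stretches shared between the probes were measured. Over the 136 pairs of the 17 probes, 1 pair shared an identical run longer than 15 bases. That pair was the 2 Ugt2a3 probes, which share a run of 19 bases, and the longest run between differently named Ugt2b probes printed here was 14 bases, between Ugt2b and Ugt2b17. The probes lie at different places in their transcripts and were not compared with the transcripts of the other genes. Whether a probe also reads a related gene was therefore not tested. Capitals mark the shared run within each pair.
Ugt2a3 (1493): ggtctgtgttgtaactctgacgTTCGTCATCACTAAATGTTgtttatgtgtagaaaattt
Ugt2a3 (1507): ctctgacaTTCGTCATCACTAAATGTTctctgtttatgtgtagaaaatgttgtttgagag
Ugt2b (1550): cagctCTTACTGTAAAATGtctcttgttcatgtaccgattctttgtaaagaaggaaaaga
Ugt2b17 (1521): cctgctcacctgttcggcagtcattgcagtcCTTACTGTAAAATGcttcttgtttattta

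For the Ugt1a locus the probes differ in kind. Both Ugt1a6 probes list transcripts that RefSeq now names Ugt1a5, Ugt1a6 and Ugt1a7c, so they read the shared 3′ exon and sum over the genes that use it. The Ugt1a9 probe lies 110.2 kb upstream of the first of them and lists Ugt1a9 alone. RefSeq has 8 coding Ugt1a genes and 2 pseudogenes here, and the 8 coding genes end at 1 common position. No member probe therefore gives Ugt1a1, the bilirubin-conjugating member, or Ugt1a6, known for flat phenols, by itself. One probe of each kind is shown.
Ugt1a9 (544, first exon): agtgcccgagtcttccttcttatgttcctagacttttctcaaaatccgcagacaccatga
Ugt1a6 (1609, shared exon, first 30 bases): tgttgacggtggtcttcattgtctataaaa

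Levels are log2 processed signals with the 75th percentile of the array's non-control spots at 0, and a change is furan minus control on that scale. A probe was tested where at least 1 group had it well above background on each of its 4 arrays, and called at an adjusted p below 0.05 by limma with Benjamini-Hochberg adjustment over all 20268 probes tested. Of the 17 members, 16 were tested and 15 were above background on all 8 arrays; the second Ugt2b probe (base 2535) was above it on none. In furan livers 2 members were higher (Ugdh and Ugt2b7) and 2 lower (Ugt2b and the 3′ probe of Ugt2b37), and 12 were not called. Ugt2b7 is the tested member that was not above background on all 8 arrays, and where that is required 1 member (Ugdh) is higher. The 4 calls are 25% of the members tested, against 33.8% of all probes (16.9% higher and 16.9% lower). The furan and control values did not overlap for 4 members, or 25%, against 36.4% of all probes. The median change was 0.14 over the members and -0.03 over all probes, and the median absolute change was 0.44 against 0.36.

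Some facts of the whole series touch these values. The 75th percentile of the signal was 827 to 1057 intensity units on control arrays and 1256 to 1596 on furan arrays, and no spot was saturated. Slide 1 carried control 1, control 2, furan 1 and furan 2, and slide 2 carried the rest. Replicate spots scattered more on control 2 (median coefficient of variation 9.38%) and furan 1 (12.8%) than on the other arrays (4.20% to 7.57%). Hepatocyte markers were bright on every array, with a summed linear level of 2675 to 3289 in controls and 1681 to 2108 in furan livers (75th percentile as 1). Of these 10 markers 8 fell, with a median change of -0.70, while 16.8% of all genes fell. In whole tissue, fewer cells of a type and less RNA per cell cannot be told apart. These falls are also relative to the 75th percentile, which was higher on every furan array than on any control array. The part of that scaling in them was not tested. Precision is limited by the 4 arrays in each group.

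**Figure D1:**
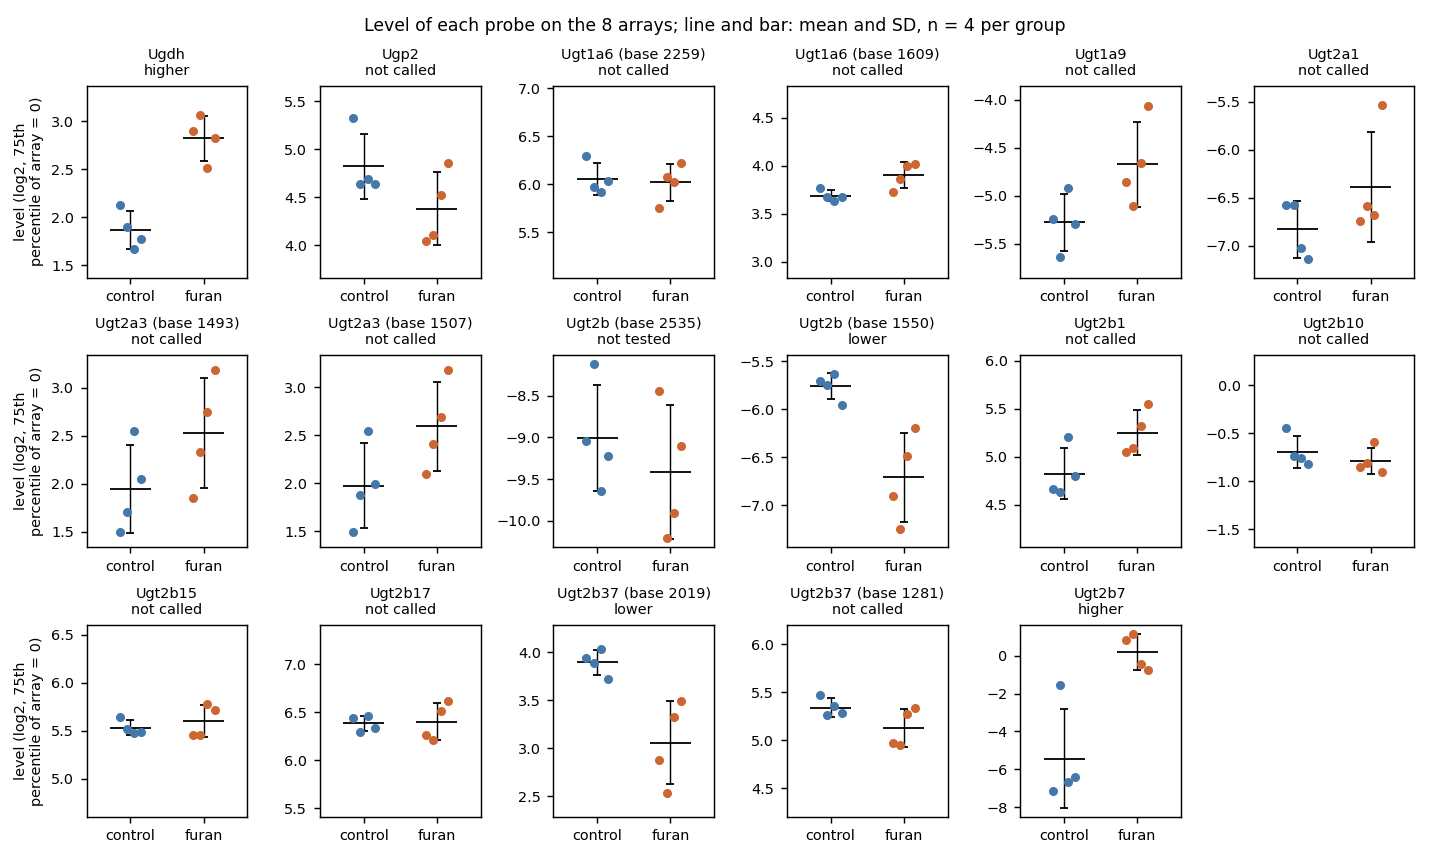
Level of each of the 17 probes on the 8 arrays (log2, 75th percentile of the array at 0); points are arrays in replicate order, lines and bars are mean and SD of 4 arrays, and each panel has its own axis range. Ugdh and Ugt2b7 lie higher and Ugt2b (base 1550) and Ugt2b37 (base 2019) lower in all 4 furan livers than in any control.

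Of the enzymes for the sugar donor, Ugdh, the dehydrogenase that makes UDP-glucuronate, rose close to 2-fold. Its probe lies at chr14:45570166-45570225 (rn4, plus strand). In replicate order, the order used throughout, control levels were 2.13, 1.90, 1.67 and 1.78, and furan levels were 2.90, 3.07, 2.51 and 2.82. Every furan liver was above every control. The means were 1.87 ± 0.20 and 2.83 ± 0.23 (SD, n = 4 each), a change of 0.96 (SE 0.15, 95% interval 0.60 to 1.31; 1.94-fold; limma adjusted p = 0.0031). The change was 0.97 on slide 1 and 0.94 on slide 2.

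Ugp2, which makes the UDP-glucose that Ugdh uses, did not pass the test. Its probe lies at chr14:102072808-102072867 (rn4, minus strand). Control levels were 5.32, 4.63, 4.69 and 4.64, and furan levels were 4.04, 4.11, 4.52 and 4.86. Furan 1 to 3 lay below every control, while furan 4 lay among them. The change was -0.44 (SE 0.23, 95% interval -0.96 to 0.09; limma adjusted p = 0.172), and it was -0.90 on slide 1 and 0.02 on slide 2.

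Of 16 listed genes for the supply and use of UDP-glucuronate, 15 were tested at their brightest probe: 5 rose, 1 fell and 9 were not called. The median change was -0.01, against -0.03 over 17607 genes, of which 34.0% were called (17.2% higher and 16.8% lower). Besides Ugdh, the risers included Pgm2 (0.89, limma adjusted p = 0.0421), a sugar phosphate mutase. Gbe1, the glycogen branching enzyme, rose by 0.58 and the nucleotide carrier Slc35b1 by 0.55. Gusb, the lysosomal enzyme that removes glucuronic acid again, changed by -0.04 (95% interval -0.28 to 0.20; limma adjusted p = 0.803).

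Glucuronate is also used to make vitamin C in the rat. All 7 genes of a list for vitamin C and glucuronate were tested. Of these, 3 rose, 3 fell and 1 (Rgn, -0.30) was not called, with a median of -0.30. Among all genes 17.2% rose and 16.8% fell. The list also holds glucuronate steps outside vitamin C synthesis, so the counts do not describe that synthesis alone. The risers were Cryl1, the gulonate dehydrogenase (2.04, SE 0.29, limma adjusted p = 0.002), Akr1a1, which reduces glucuronate to gulonate (1.30, SE 0.11), and Miox, which makes glucuronate from inositol (0.72, SE 0.21). Control livers held Akr1a1 at 2.53 to 2.66 and furan livers at 3.70 to 4.07. Those that fell were Dcxr, the xylulose reductase (-1.01), Gulo, the last enzyme of vitamin C synthesis (-0.81), and Xylb, the xylulose kinase (-0.80). For Gulo the ranges were 3.38 to 3.81 and 2.77 to 3.06, again without overlap.

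No probe of the Ugt1a locus was called in the fit over all probes. The probe at the far 3′ end of the shared exon (base 2259, chr9:87098271-87098330, rn4) read 6.30, 5.97, 5.92 and 6.03 in controls and 5.76, 6.08, 6.02 and 6.22 in furan livers. The groups overlapped, and the change was -0.03 (SE 0.14, 95% interval -0.35 to 0.28; limma adjusted p = 0.875). The other shared probe (base 1609, chr9:87097621-87097680, rn4), 650 bases upstream, read 3.77, 3.68, 3.63 and 3.68 in controls and 3.73, 3.87, 4.00 and 4.02 in furan livers. Of the furan livers 3 lay above every control there, and the change was 0.21 (SE 0.10, 95% interval -0.02 to 0.45; limma adjusted p = 0.143). With normexp it was called at 0.29 (limma adjusted p = 0.0185). Within arrays the 2 probes moved apart by 0.25 (SE 0.08; exact two-sided permutation p = 0.0286, the smallest that 4 against 4 arrays can give; 0.0429 after adjustment over 3 pairs of probes of 1 gene name). The test of these 3 pairs was added after the values were seen, so the adjusted p rests on a family chosen then and is not taken as a call.

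The first exon of Ugt1a9 (chr9:86987459-86987518, rn4) read -5.25, -5.64, -4.92 and -5.30 in controls and -4.86, -5.11, -4.66 and -4.07 in furan livers. Furan 1, 3 and 4 lay above every control and furan 2 among them. The change was 0.60 (SE 0.24, 95% interval 0.05 to 1.15; limma adjusted p = 0.0843), not called. With slide as a block it was called (limma adjusted p = 0.0409), and with normexp background correction the value was -0.08 (limma adjusted p = 0.659), so its direction rests on the handling of background.

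The Ugt2 probes lie in a row of 675 kb on chromosome 14, and the largest change of all members fell on 1 gene in it. Ugt2b7 was read at chr14:22522550-22522609 (rn4). Its levels were -7.14, -1.55, -6.67 and -6.40 in controls and 0.85, 1.17, -0.44 and -0.76 in furan livers. Control 2 stood far above the other controls, and every furan liver was above control 2. The means were -5.44 ± 2.61 and 0.21 ± 0.95 (SD, n = 4 each), a change of 5.64 (SE 1.17, 95% interval 2.96 to 8.33; 50.02-fold; limma adjusted p = 0.00807). The probe was well above background on 4 furan arrays but on 3 of the 4 control arrays, so it entered the test through the group in which it was high. The fitted fold depends on the dim controls: with normexp the change was 3.42 (limma adjusted p = 0.00179). Without control 2 it was 6.94 (limma adjusted p = 0.000488). It was 5.36 on slide 1 alone, not called there (limma adjusted p = 0.189), and 5.93 on slide 2 alone (0.00809).

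Some markers of bile duct and gut were high on some of the same arrays. The summed level of the 10 biliary markers was 0.726, 5.64, 1.13 and 0.816 in controls and 9.93, 4.03, 1.79 and 1.51 in furan livers, so control 2, furan 1 and furan 2 stood out. Epcam (1.79), Cldn7 (1.54) and Sox9 (0.48) rose and 7 biliary markers were not called, while 17.2% of all genes rose. Krt19, a keratin of duct cells, read 0.32 in control 2 and -4.33 to -3.28 in the other controls, and 0.71, -1.72, -3.62 and -3.52 in furan livers. Epcam, a surface protein of duct cells, read -1.80, -0.69, -1.58 and -1.67 in controls and 1.17, 0.60, 0.04 and -0.39 in furan livers, all of these above every control. Of 6 intestinal markers tested 1 rose (Fabp2, 2.50). Their summed level was 7.62, 10.6, 8.46 and 12.9 in controls and 18.2, 14.3, 11.5 and 11.3 in furan livers. Among controls it was highest on control 4, and Fabp2, Cdx1 and Cdh17 were not highest on control 2. Vil1 and Muc2 were on the array but not well above background. Lgals4, a lectin of gut epithelium, read -0.95 in control 2 against -8.18 to -7.20 in the other controls, and 2.53, -2.55, -5.16 and -5.05 in furan livers. The part of these cells in the Ugt2b7 result was not tested. The summed levels of the stellate, macrophage, lymphocyte and endothelial markers overlapped between the groups, and none of those lists held a called gene. The biliary and intestinal sums overlapped between the groups as well. The stellate sum was 14.8 on control 2, against at most 8.58 on the other controls. In furan livers it was 25.6, 12.8, 7.11 and 5.31, so control 2, furan 1 and furan 2 stood out there too. This array pattern was therefore not particular to markers of bile duct and gut. The part of stellate cells in the Ugt2b7 result was not tested either.

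**Figure D2:**
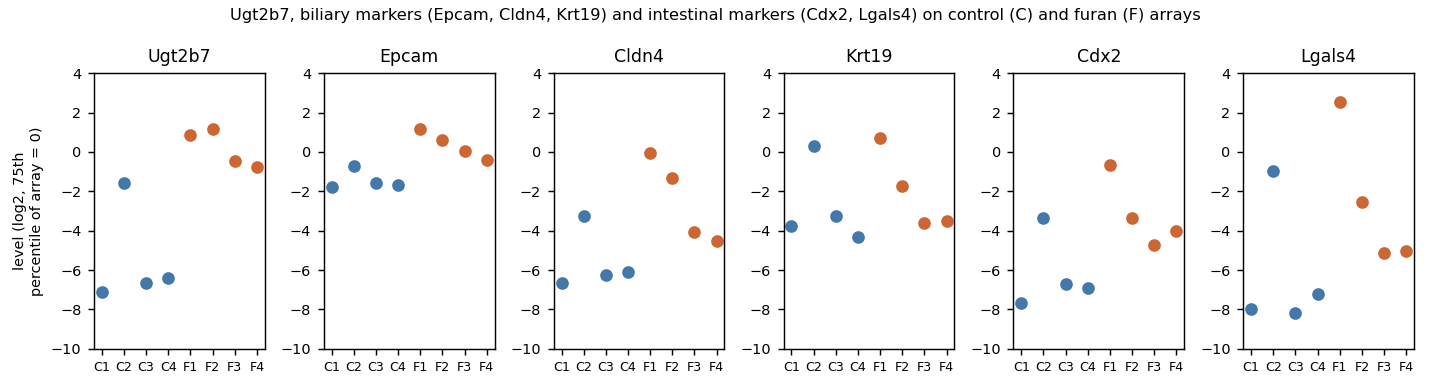
Levels (log2, 75th percentile of the array at 0) of Ugt2b7, of the biliary markers Epcam, Cldn4 and Krt19 and of the intestinal markers Cdx2 and Lgals4 on control arrays C1 to C4 and furan arrays F1 to F4. Control 2 is the highest control in all 6 panels, and the 4 furan arrays of Ugt2b7 lie between -0.76 and 1.17. The markers shown were picked after their values were seen. Sox9, Fabp2, Cdx1 and Cdh17, which are not shown, were not highest on control 2 among controls.

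Ugt2b, an androsterone-conjugating member in the rat, fell. Its 1 tested probe (base 1550, chr14:22177431-22177490, rn4) read -5.70, -5.74, -5.64 and -5.95 in controls and -6.90, -7.25, -6.48 and -6.20 in furan livers. All 4 furan livers lay below all controls, and furan 1 and 2 were the lowest. The means were -5.76 ± 0.14 and -6.71 ± 0.46 (SD, n = 4 each), a change of -0.95 (SE 0.22, 95% interval -1.45 to -0.45; limma adjusted p = 0.0125). The change was -1.35 on slide 1 and -0.54 on slide 2, and it was not called on either alone. Without control 2 and furan 1 together it was -0.88 (limma adjusted p = 0.0579), and with normexp it was -0.63, still called. The other Ugt2b probe (base 2535, chr14:22179488-22179547) was not well above background on any array and is given no change.

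The 2 probes of Ugt2b37 gave unequal values. The 3′ probe (base 2019, chr14:22422764-22422822, rn4) read 3.94, 3.89, 4.04 and 3.72 in controls and 2.88, 2.54, 3.32 and 3.49 in furan livers. All furan livers lay below all controls. The means were 3.90 ± 0.13 and 3.06 ± 0.43 (SD, n = 4 each), a change of -0.84 (SE 0.21, 95% interval -1.31 to -0.36; limma adjusted p = 0.0163), with -1.20 on slide 1 and -0.47 on slide 2. Without control 2 and furan 1 together it was -0.78 (limma adjusted p = 0.0682), and on each slide alone it was not called. The probe at base 1281 (chr14:22419234-22419293, rn4) read 5.47, 5.26, 5.35 and 5.28 in controls and 4.97, 4.95, 5.27 and 5.33 in furan livers. Furan 1 and 2 lay below all controls and furan 3 and 4 did not, and the change was -0.21 (SE 0.12, 95% interval -0.49 to 0.08; limma adjusted p = 0.226). Within arrays the 2 probes differed in their change by 0.63 (SE 0.14; exact two-sided permutation p = 0.0286, and 0.0429 after adjustment over 3 pairs). Here too the pair test was added after the values were seen, and its adjusted p is not taken as a call. The falls of Ugt2b and Ugt2b37 stood beside the fall of 8 of 10 hepatocyte markers, whose part in them was not tested.

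Ugt2b1, a liver enzyme for steroids and opioids, was high in most furan livers but not called. Its probe (chr14:22650838-22650897, rn4) read 4.67, 4.63, 5.20 and 4.80 in controls and 5.05, 5.09, 5.32 and 5.55 in furan livers. Control 3 lay within the furan range and the other controls below it. The change was 0.43 (SE 0.17, 95% interval 0.04 to 0.82; limma adjusted p = 0.0833), and 0.42 and 0.44 on the slides. It was called with slide as a block (limma adjusted p = 0.0337), with quantile normalization (0.56, 0.0182), with normexp (0.44, 0.0337) and without control 3 (0.55, 0.0388).

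Ugt2a3 was read by a pair of overlapping probes that gave nearly the same values. The brighter of them (base 1507, chr14:22116723-22116782, rn4) read 1.49, 1.88, 2.55 and 2.00 in controls and 2.09, 2.41, 2.70 and 3.18 in furan livers. The groups overlapped through control 3, and the change was 0.62 (SE 0.28, 95% interval -0.03 to 1.26; limma adjusted p = 0.123). The other (base 1493) changed by 0.58 (SE 0.32; limma adjusted p = 0.193). With slide as a block both were called (limma adjusted p = 0.0386 and 0.0434). Within arrays they differed in their change by 0.04 (exact two-sided permutation p = 0.657).

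Ugt2a1, known from the olfactory lining, read -6.57, -6.58, -7.03 and -7.13 in controls and -6.74, -6.59, -6.68 and -5.53 in furan livers (chr14:22068631-22068690, rn4). Furan 4 stood above the other 7 arrays. The change was 0.44 (95% interval -0.21 to 1.09; limma adjusted p = 0.261), and with normexp it was -0.36 (limma adjusted p = 0.0482), the opposite direction. It was also negative, without a call, with spots marked as outliers kept (-0.22) and on slide 1 alone (-0.09).

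The remaining Ugt2b probes showed small changes. Array names are older than current ones here: the probe named Ugt2b17 lists the transcript RefSeq now names Ugt2b15, and the probe named Ugt2b15 lists that now named Ugt2b35. The Ugt2b17 probe (chr14:22366563-22366622, rn4) read 6.44, 6.29, 6.46 and 6.34 in controls and 6.27, 6.22, 6.52 and 6.61 in furan livers, a change of 0.02 (95% interval -0.26 to 0.29; limma adjusted p = 0.924). With quantile normalization it was called at 0.35 (limma adjusted p = 0.0265). The groups overlapped here, as they did for the Ugt2b15 probe, which read 5.65, 5.52, 5.48 and 5.48 in controls and 5.46, 5.46, 5.78 and 5.72 in furan livers. The latter lies within chr14:22478931-22480029 (rn4), a span longer than its 60 bases, and its change was 0.07 (95% interval -0.19 to 0.33; limma adjusted p = 0.678). Ugt2b10 (chr14:22743224-22743283, rn4) read -0.45, -0.73, -0.76 and -0.82 in controls and -0.85, -0.81, -0.59 and -0.90 in furan livers. Its change was -0.10 (95% interval -0.38 to 0.19; limma adjusted p = 0.58).

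**Figure D3:**
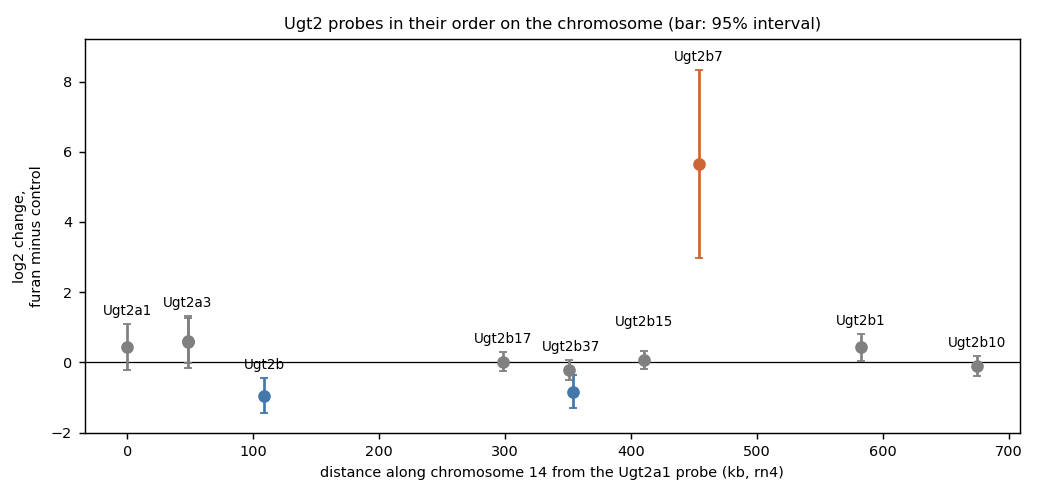
Change of each tested Ugt2 probe (log2, furan minus control; bars are the 95% interval of the limma fit, 4 arrays per group) against its distance in kb from the Ugt2a1 probe on chromosome 14; orange is called higher, blue lower, grey not called. Ugt2b7, 454 kb along the row, is at 5.64, and the Ugt2b15 and Ugt2b1 probes on either side of it are at 0.07 and 0.43.

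Whether members changed by unequal amounts was tested pair by pair within each array, over the 37 pairs within Ugt1a and within Ugt2 at the brightest probe of each name. The smallest p that 4 against 4 arrays allow, 0.0286, was reached by 16 pairs, and none passed after adjustment (smallest adjusted p = 0.0661, exact permutation test). The 8 pairs with Ugt2b7 and the 8 with Ugt2b were among those tested, and none of them was called. No pair could pass by its own size, since its adjusted p depends on how many other pairs reach the smallest p. The lack of a call therefore does not show that the members changed equally. The unequal change of Ugt2b7 and its neighbours is thus given by values, without a call from this test.

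**Figure D4:**
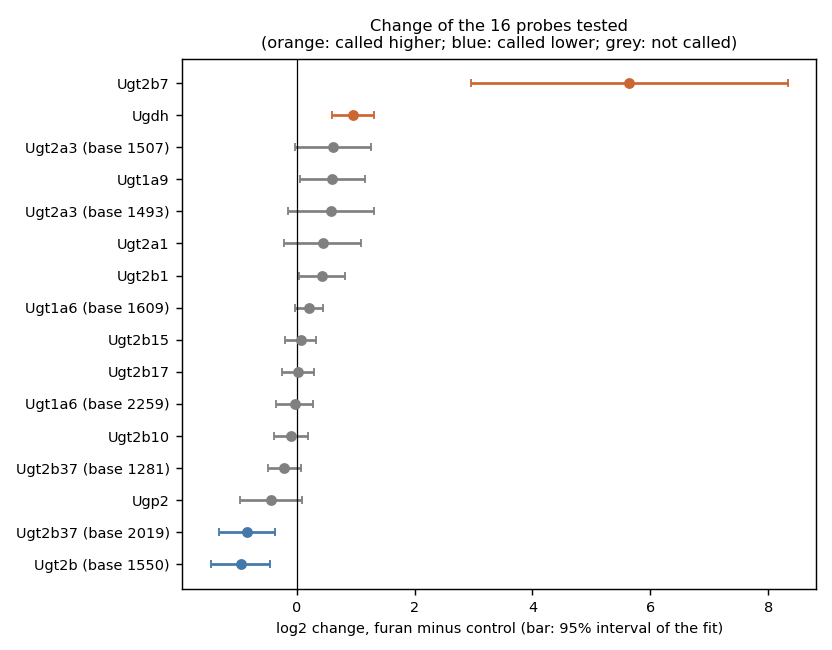
Change of each of the 16 tested probes (log2, furan minus control), with the 95% interval of the limma fit over 4 arrays per group; orange is called higher, blue lower, grey not called. The 12 probes without a call lie between -0.44 (Ugp2) and 0.62 (Ugt2a3).

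Of 4 other UDP-glycosyltransferases listed (Ugt3a1, Ugt3a2, Ugt8 and Ugt8a), none was tested: Ugt3a2 and Ugt8 were on the array without being well above background on all arrays of a group.

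Factors that control transferase genes fell or were not called. Of the 16 listed, 0 rose, 5 fell and 11 were not called, with a median change of -0.36 against -0.03 over all genes (17.2% rose and 16.8% fell). Hnf4a, a master factor of hepatocyte genes, fell by 0.98 (SE 0.20, limma adjusted p = 0.00755). Nr3c1, the glucocorticoid receptor, fell by 0.96 (SE 0.12, limma adjusted p = 0.00145) and the receptor partner Rxra by 0.63 (SE 0.13, 0.00824). Hnf4a ranged from -1.21 to -0.94 in controls and from -2.59 to -1.70 in furan livers. The receptors for foreign compounds were not called: Nr1i3 (CAR) at -0.56 (limma adjusted p = 0.068), Nr1i2 (PXR) at -0.35 (0.178) and Ahr at -0.29 (0.23). Nfe2l2, which encodes NRF2, was at 0.42 (95% interval -0.05 to 0.90; limma adjusted p = 0.148).

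Target genes of these receptors and of NRF2 split. Of 19 listed, 16 were tested, and 6 rose, 4 fell and 6 were not called, with a median change of 0.44. Shares over all genes were 17.2% higher and 16.8% lower. Cyp1a1, the classic target of the dioxin receptor, rose by 2.83 (SE 0.53, limma adjusted p = 0.00517). Nqo1, a quinone reductase under NRF2, rose by 1.77 (SE 0.24, 0.00169), as did Cyp3a62 (1.74) and Srxn1, which repairs oxidised peroxiredoxins (1.67). The falls were Cyp1a2 (-1.89, limma adjusted p = 0.00312), another dioxin receptor target, Cyp3a18 (-1.66), Cyp3a9 (-0.93) and Tiparp (-0.47). Cyp1a1 read -7.07 to -5.57 in controls and -4.29 to -1.98 in furan livers, and Cyp1a2 read 2.90 to 3.48 and 0.54 to 2.01, so neither overlapped. With controls this dim, the size of the Cyp1a1 change is uncertain.

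The carriers that take glucuronides and bilirubin across the cell membrane changed on both sides. Of 12 listed genes for bilirubin handling and glucuronide export, all tested, 4 rose, 3 fell and 5 were not called, with a median of 0.08. Over all genes 17.2% rose and 16.8% fell. The risers are export pumps. Abcc3, which moves glucuronides back to blood, read -6.41, -6.79, -6.99 and -7.30 in controls and -3.02, -3.43, -3.43 and -3.50 in furan livers. No furan liver was near a control, and the change was 3.53 (SE 0.20, 95% interval 3.07 to 3.99; 11.5-fold; limma adjusted p = 9.5e-05). The control levels were as dim as most of those of Ugt2b7, so the size of the Abcc3 change is uncertain. Abcc2, the pump for bilirubin glucuronide into bile, rose from 3.69 ± 0.24 to 4.69 ± 0.25 (SD, n = 4 each; change 1.00, SE 0.17; limma adjusted p = 0.00354). Abcg2 rose by 1.66 and Abcc4 by 1.06. The uptake carriers Slco1a1 (-1.57), Slco1a4 (-1.32) and Slco1b2 (-1.13) fell. Hmox1, which opens the haem ring toward bilirubin, was at -0.02 (limma adjusted p = 0.968).

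**Figure D5:**
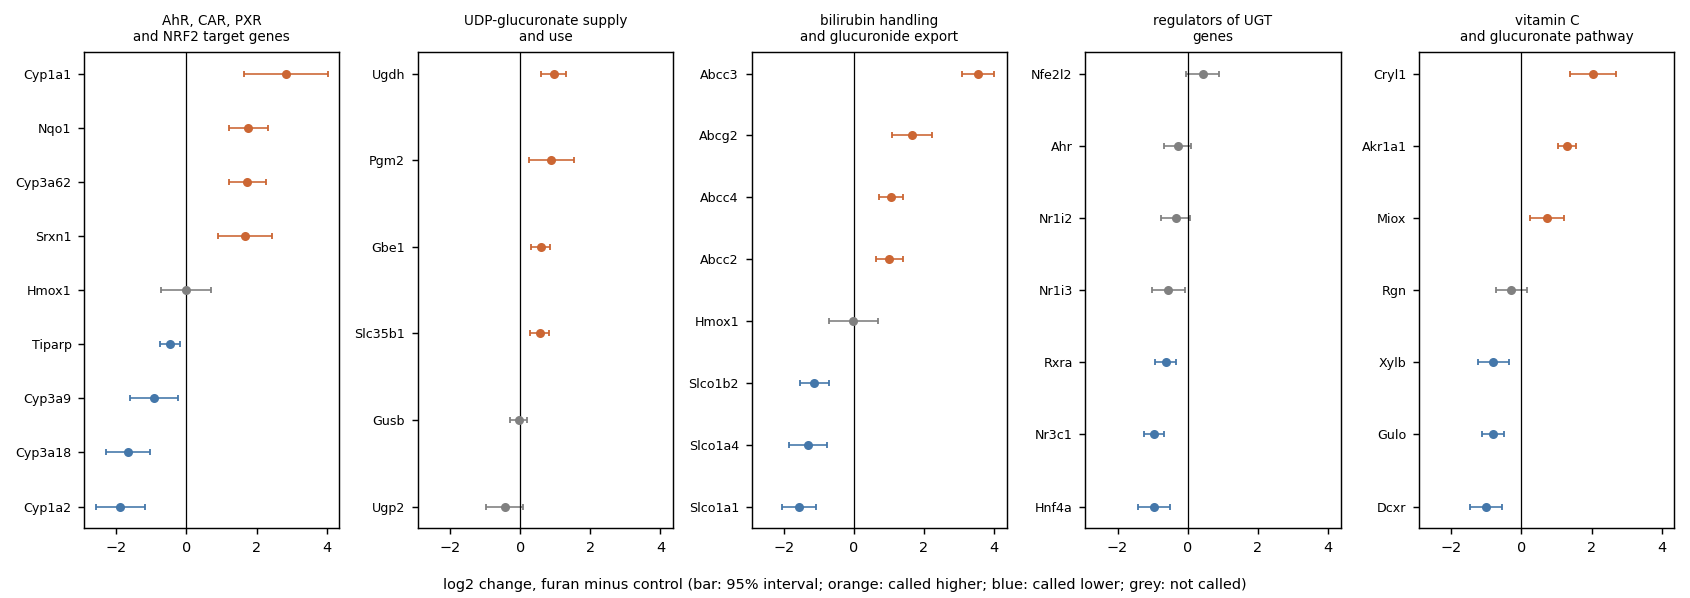
Change of the genes named in the text from 5 lists (log2, furan minus control, brightest probe), with the 95% interval of the limma fit over 4 arrays per group; orange is called higher, blue lower, grey not called. No regulator shown is called higher, while Abcc3 reaches 3.53 and Cryl1 2.04.

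Promoter sequence was set beside the 2 members called higher. RefSeq windows of 250 bases before the start (GRCr8) were found for 12 of 13 member symbols and were searched on both strands for TGACNNNGC, the core of the antioxidant element bound by NRF2, and GCGTG, the core of the dioxin element. Over 33469 windows these occurred in 10.1% and 25.9%. Ugdh held the antioxidant core on the minus strand, 207 to 199 bases before the start, overlapping a dioxin core on the plus strand at 207 to 203; capitals mark both. Ugt2b7 held neither. Ugp2, which was not called, held a dioxin core on the plus strand at 112 to 108 and no antioxidant core. Among 8 Ugt2 windows, 0 held the antioxidant core and 0 the dioxin core. The 7 Ugt1a windows include genes of the locus that are no member names (Ugt1a1, Ugt1a2, Ugt1a3, Ugt1a7c and Ugt1a8). Of the 7, 0 held the antioxidant core and 4 the dioxin core (Ugt1a3, Ugt1a6, Ugt1a7c and Ugt1a8).
Ugdh promoter, chr14:43202268-43202517, plus strand: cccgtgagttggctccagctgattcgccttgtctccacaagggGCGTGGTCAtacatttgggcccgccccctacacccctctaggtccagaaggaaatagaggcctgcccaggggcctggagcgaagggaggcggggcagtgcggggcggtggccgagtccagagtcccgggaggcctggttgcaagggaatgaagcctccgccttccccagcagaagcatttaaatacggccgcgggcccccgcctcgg
Ugt2b7 promoter, chr14:21251285-21251534, plus strand: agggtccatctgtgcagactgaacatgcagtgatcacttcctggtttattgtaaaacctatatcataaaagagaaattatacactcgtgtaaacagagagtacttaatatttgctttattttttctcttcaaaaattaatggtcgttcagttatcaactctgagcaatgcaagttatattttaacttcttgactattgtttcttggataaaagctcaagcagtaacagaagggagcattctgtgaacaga
A match of these letters describes the window and is not a measured site, and the arrays did not measure binding.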

How the data were processed

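Liver RNA of 4 control and 4 furan rats was measured, 1 array per rat. Per the file headers and the submitters' processing notes, the authors extracted the Cy3 spots with Agilent Feature Extraction 10.7, and the deposited processed signal is a background-subtracted intensity, not log transformed. The authors' deposited series table gave identical changes. From there, log2 intensity minus each array's 75th percentile of non-control spots was computed, with outlier spots left out and spots of a probe averaged. Of 30367 probes, 170 had no usable spot and 20268 passed the background filter. Groups came from the labels and were compared with limma 3.58.1 (lmFit, eBayes, two-sided, R 4.3.3), with no covariate, and the code was tested on simulated data. Genes were named by transcript identifier for 18438 probes; coordinates are those of the array annotation (rn4).

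Every member probe is given; list genes are named when called, up to 4 in each direction, plus Nr1i2, Nr1i3, Ahr, Nfe2l2, Hnf4a, Abcc2, Abcc3 and Gusb. Rgn, Hmox1 and the cell markers were named after their values were seen, and the test of probe pairs of 1 gene name was added then. Members and lists were chosen with earlier results of these data known. Alternatives were background correction, normalization, filters, the variance trend, slide, replicate number and left-out arrays. Some list genes enter the counts but are not reported here by name, nor is a further promoter motif that was searched. Beyond RefSeq's promoter windows and gene table (GRCr8), no genome was used here, and no protein sequence.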

Additional observations from a re-analysis of the deposited data

Results flagged for a closer look

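Within each group of 4 arrays, the highest or lowest value was checked for a gap to the others that is large for the group's range. Of 34 such groups of member values, 3 stood out, and chance gives about 1 in 20. Ugt2b7 on control 2 was at -1.55, with the other controls between -7.14 and -6.40. Ugp2 on control 1 was at 5.32, with the other controls between 4.63 and 4.69. Ugt2a1 on furan 4 was at -5.53, with the other furan arrays between -6.74 and -6.59.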

How the results depend on the processing

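Of 332 values of single member probes under the alternatives, 313 kept their side of the threshold without a called change of direction, 9 lost and 9 gained a call, and 1 was called in the opposite direction: Ugt2a1 with normexp, at -0.36. In all 17 values changed sign, that one included. Over all probes, 3429 rose and 3423 fell; with normexp these were 3070 and 7102, and the median change of all probes moved from -0.03 to -0.19. Slide 1 alone gave 136 higher and 39 lower, and slide 2 alone 752 and 517, with fewer arrays in each fit. Members called higher, 2 in the report, were 4 with normexp, 4 with quantile normalization, 6 with slide as a block, 0 on slide 1, 1 on slide 2, and 1 where every array had to be above background. Members called lower, also 2, were 0 on slide 1, 0 on slide 2, 0 without control 2 and furan 1 together, and 1 at the brightest probe of each name. List genes called higher and lower, 18 and 16, were 1 and 1 on slide 1 and 7 and 4 on slide 2. Leaving out single arrays gave 2479 to 3361 higher and 2213 to 3386 lower over all probes (both lowest without furan 2), 2 to 3 and 2 to 2 for members, and 16 to 20 and 13 to 16 for list genes. The labels do not say whether replicate numbers pair the arrays, and 4 correlations cannot settle it. Deviations of same-numbered arrays correlated at -0.30, 0.11, 0.28 and 0.04, and 2 of 4 furan arrays correlated best with their own number. With the replicate number as a block, 2638 probes rose and 2472 fell, and no member call changed. Other causes of these shifts were not tested. Probes near background, such as Ugt2b7 in controls, Ugt2a1, Ugt1a9 and Ugt2b (-0.63 with normexp), have uncertain sizes. The list genes Abcc3 and Cyp1a1 were also dim in controls, and changes of single list genes under the alternatives are not given.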
